A study of Mus musculus with 18 samples.

Results

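miR-378 and miR-378* are the 2 mature arms of a hairpin that lies in an intron of Ppargc1b, and they were followed across mammary tumour pools of 18 mouse strains. They were taken by name as 2 of the 583 mature miRNA rows of the deposited table. They were chosen from these data for their levels, for the relation of the arms and for their likeness to muscle miRNAs, so these are given as a description with no test. In GRCm38, the hairpin gene Mir378a (ENSMUSG00000105200.1) lies on the minus strand of chromosome 18 at 61397835 to 61397900. It falls in intron 1 of all 3 annotated transcripts of Ppargc1b (ENSMUSG00000033871.14, 61298136 to 61400431, minus strand) and overlaps no exon of them. The table itself has no coordinates, and Ppargc1b mRNA was not measured.

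Ppargc1b encodes PGC-1β, a coactivator of oestrogen-related receptors that raises genes of mitochondria and fatty acid oxidation. miR-378 is abundant in skeletal muscle, heart and brown fat, and mice without the hairpin have raised oxidative metabolism. In human breast cancer cells, miR-378* acts on GABPA and ERRγ, partners of PGC-1β, and shifts cells from respiration to glycolysis. In the older names used by the table the star marks the minor arm, and the arms are now called miR-378a-3p and miR-378a-5p.

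The tumours came from F1 mice of AKXD recombinant inbred strains, each descended from AKR/J and DBA/2J, crossed to FVB/N-TgN(MMTV-PyVT)634Mul. All mice thus carried the polyoma virus middle T transgene, which is driven in mammary epithelium by a mouse mammary tumour virus promoter. RNA of snap-frozen tumours was pooled per strain and sequenced as 1 library, so n = 1 per strain and differences among strains have no replicate check. Neither the tumours per pool nor the age of the mice is stated in the labels. Libraries held 4358311 (strain 7) to 14946857 (strain 27) miRNA reads. Levels are in CPM, counts per 1000000 reads of a library, with library sizes adjusted by the trimmed mean of M values, which sets aside the most extreme rows. In all, 281 distinct rows averaged at least 10 CPM, and 8 of the 9 measured rows of the luminal epithelial list (the miR-200 family and miR-141) were among them, at a summed 28993 to 55347 CPM. The libraries of strains 10, 13, 14 and 20 stood apart: their scores on the leading principal component (27.6% of variance) were the 4 lowest. They also had the 4 smallest scaling factors, 0.671 to 0.776, against 0.851 or more in the other 14. Likeness values without them are given for part of the named miRNAs. In such bulk RNA, a change in the number of cells of a type and a change in the RNA per cell cannot be told apart.

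Mature sequences are shown for 7 miRNAs whose levels followed or opposed an arm of miR-378 and for miR-107, the seed mate of miR-103, from RefSeq on GRCm38.p6, 5′ to 3′ with the seed (bases 2 to 8) in capitals. All 8 looked up were matched, and they hold 7 different seeds. The letters let a reader see that miRNAs alike in level need not share a seed.
miR-126-3p: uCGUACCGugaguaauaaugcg
miR-206: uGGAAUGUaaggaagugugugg
miR-133b: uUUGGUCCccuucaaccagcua
miR-103: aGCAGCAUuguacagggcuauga
miR-107: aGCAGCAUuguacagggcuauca
miR-223: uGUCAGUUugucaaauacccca
miR-96: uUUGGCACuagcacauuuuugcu
miR-19b: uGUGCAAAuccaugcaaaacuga

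miR-378 was among the most abundant miRNAs of the tumours, and its level was set apart by 1 strain. It averaged 33480 ± 26309 CPM (SD, n = 18 strains), with a lowest value of 14412 CPM in strain 7, a median of 25966 CPM and a highest value of 126604 CPM in strain 14. The highest strain lay 8.78 times above the lowest and 2.11 times above the next, strain 10 at 59878 CPM. Strains 20 and 13 followed at 44643 and 43416 CPM, so that the 4 libraries that stood apart held the 4 highest levels. Below them, strain 2 was at 38905 CPM and strain 24 at 37353 CPM, ahead of a middle group of strain 23 (28434 CPM), strain 11 (26721 CPM), strain 27 (26461 CPM) and strain 21 (25470 CPM). Strain 18 was at 22127 CPM, strain 3 at 20539 CPM and strain 22 at 20388 CPM. The lowest levels were those of strain 16 (18191 CPM), strain 28 (17527 CPM), strain 25 (15893 CPM), strain 9 (15684 CPM) and strain 7.

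The order of the strains is a description of single pools. With 59025 to 1117806 reads per library, counting error was small, and rounding of the deposited values to 2 decimals adds up to 0.005 log2. Only 3 of the 17 steps between neighbours had overlapping 95% intervals (exact Poisson, widened for rounding): strain 11 and strain 27, strain 3 and strain 22, and strain 25 and strain 9. These intervals cover counting error only and say nothing of the spread between tumours of a strain.

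miR-378* was scarce, and its order of strains was different. It averaged 12.7 ± 5.71 CPM (SD, n = 18), with a lowest value of 6.73 CPM in strain 10, a median of 12.0 CPM and a highest value of 32.0 CPM in strain 14. Strain 27 (18.1 CPM), strain 24 (16.1 CPM), strain 16 (14.7 CPM) and strain 7 (14.2 CPM) came next. Strain 23 was at 12.9 CPM, strain 21 at 12.6 CPM, and strains 11 and 2 both at 12.3 CPM. These 9 strains mix high and low levels of the major arm. Strain 18 (11.7 CPM), strain 20 (11.4 CPM), strain 13 (11.1 CPM), strain 3 (9.75 CPM) and strain 22 (9.29 CPM) followed. Strain 9 (8.09 CPM), strain 25 (7.81 CPM), strain 28 (7.45 CPM) and strain 10 closed the order. The arm was read from 58 to 283 reads per library, and 16 of the 17 steps between neighbours had overlapping 95% intervals. The step between strain 14 (interval 28.3 to 36.1 CPM) and strain 27 (16.0 to 20.4 CPM) was the exception. Strain 14 was thus highest for both arms, while strain 10 was the second highest for miR-378 and the lowest for miR-378*.

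**Figure D1:**
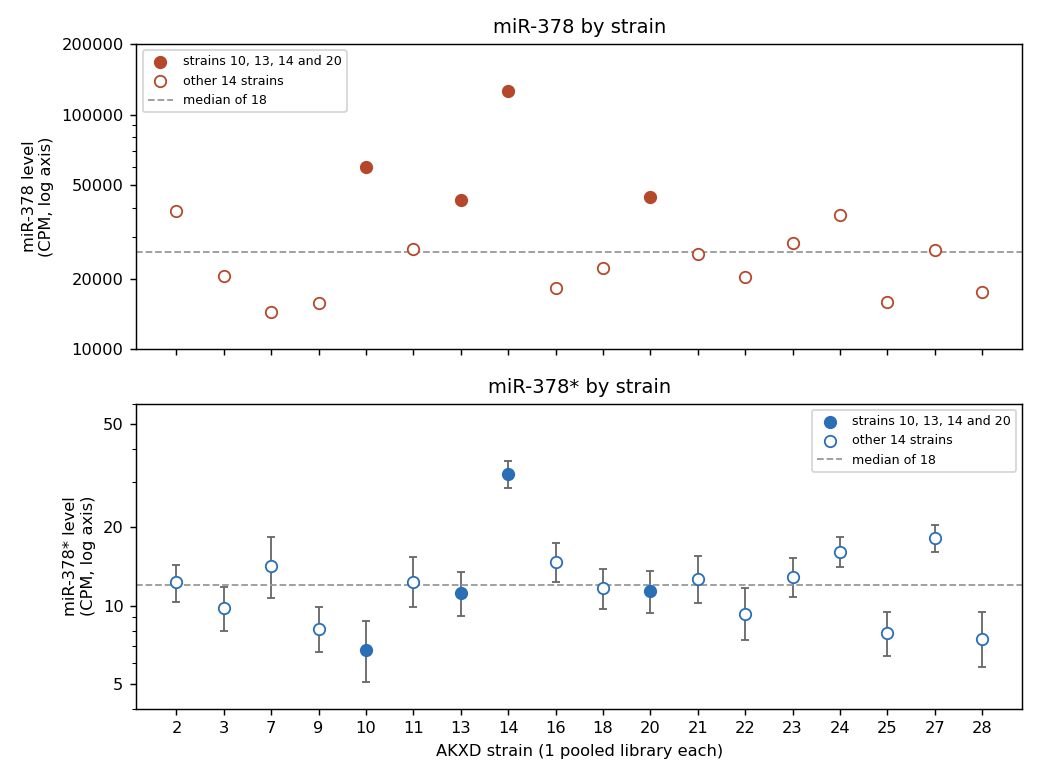
Level of miR-378 (upper panel) and miR-378* (lower panel) in each strain, in CPM on log axes; points are single pooled libraries, bars are 95% counting intervals and the dashed line is the median of 18. Strain 14 is highest in both panels at 126604 and 32.0 CPM, while strain 10 is second in the upper panel and lowest in the lower one.

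The SD of miR-378 over strains lay above those of 5 of its 6 nearest neighbours in abundance. It was 0.80 log2 (n = 18), against a median of 0.45 log2 over the 281 rows (quartiles 0.34 and 0.61), and 85.4% of rows had a smaller one. Among the 18 rows with a mean of 10000 CPM or more it ranked 5th, after miR-21 (1.87 log2), miR-146b (1.35 log2), let-7c (1.11 log2) and miR-1 (1.10 log2). Of its nearest neighbours in abundance, miR-146b was thus more variable, while miR-30a had an SD of 0.32 log2, miR-148a 0.32 log2, miR-143 0.60 log2, miR-27b 0.33 log2 and miR-24 0.33 log2. Without strains 10, 13, 14 and 20 the SD of miR-378 was 0.45 log2 (n = 14) and its range 14412 to 38905 CPM, a ratio of 2.70. miR-378* had an SD of 0.49 log2 (n = 18), against 0.14 log2 from read counting, and one of 0.37 log2 without the 4 libraries. Across the 18 strains the level of miR-378 went against the scaling factor of the library (Spearman rho = -0.75), less so that of miR-378* (rho = -0.27). The part of scaling in the level of miR-378 was not tested, but with total counts alone strains 14 and 10 were still highest, strains 20 and 13 ranked 5th and 6th, and the ratio of highest to lowest was 6.27.

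The ratio of the arms does not depend on the scaling of a library. A median of 2180 miR-378 reads stood against each miR-378* read (n = 18), with 1017 in strain 7 as the lowest and 8903 in strain 10 as the highest. The mean was 11.21 ± 0.71 log2 (SD, n = 18). Strain 10, with 516035 reads of miR-378 and 58 of miR-378*, lay 2.25 times above the next strain (95% interval 6882 to 11717). Strain 14 followed with a ratio of 3956, strain 20 with 3929, strain 13 with 3902 and strain 2 with 3169. In strain 16 the ratio was 1235 and in strain 27 it was 1458, and the other 10 strains lay between 1898 and 2353. The intervals of strains 14, 20, 13 and 2 overlapped one another, and that of strain 10 overlapped none.

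Among hairpins with both arms at a mean of 10 CPM or more, that of miR-378 had one of the most one-sided arms. It ranked 2nd of 58 by mean log2 ratio of major to minor arm (11.09 with a pseudocount of 1 CPM), between let-7b (12.15) and let-7a (11.07), against a median of 4.02 over the 58. The SD of its ratio ranked 13th, at 0.70 log2 against a median of 0.50. In strain 10 its ratio departed from its own mean by 1.83 log2, the 3rd largest departure among the 58 hairpins in that library. The other 57 hairpins departed there by a median of 0.16 log2, and 34 of them lay above their own mean. In strain 7 its departure of -1.20 log2 was the lowest of the 58, with a median of -0.021 log2 for the others. Over the 18 strains the ratio of the miR-378 arms and the median departure of the other hairpins had Pearson r = 0.42 and Spearman rho = 0.36 (r = 0.45 without strains 2 and 16).

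**Figure D2:**
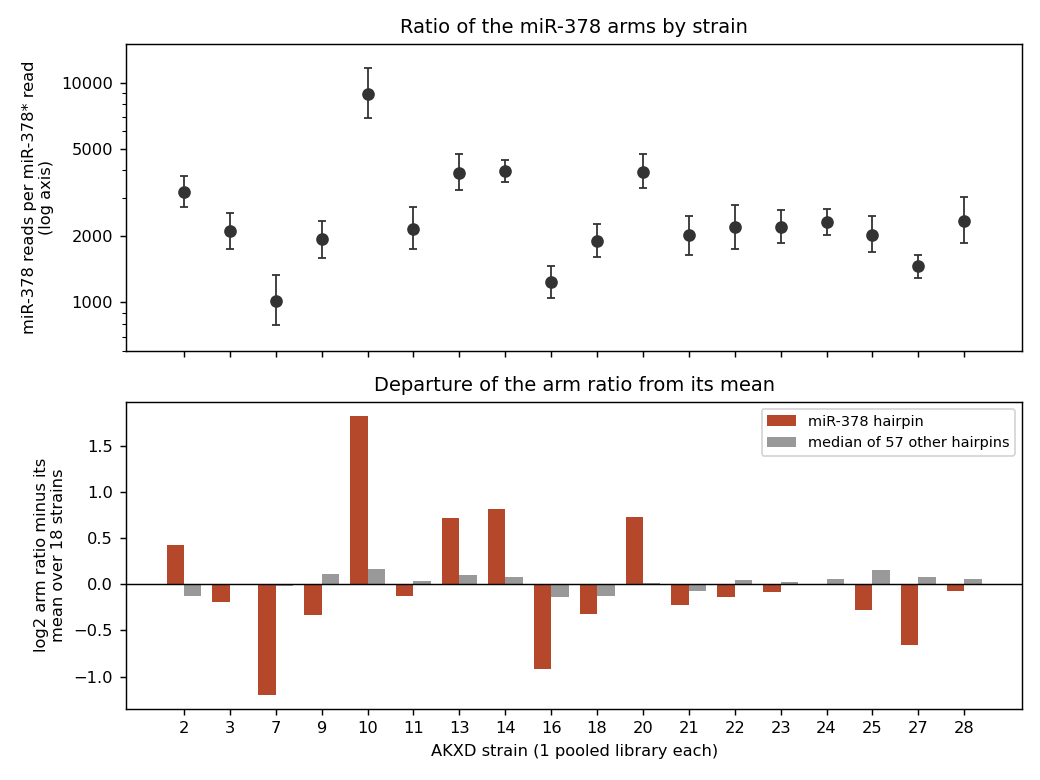
Upper panel: reads of miR-378 per read of miR-378* in each strain on a log axis, with 95% counting intervals. Lower panel: the log2 arm ratio minus its mean over 18 strains for the miR-378 hairpin (coloured bars) and the median of 57 other hairpins (grey bars); strain 10 departs by 1.83 log2 for miR-378 and 0.16 log2 for the others.

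The arms of 1 hairpin come from the same precursor, yet their levels were only loosely alike over the strains. Spearman rho between miR-378 and miR-378* was 0.23 and Pearson r 0.50 (n = 18), and r was 0.39 without strains 10 and 14, the 2 farthest from the median of miR-378*. Single strains decided these values: without strain 10, rho was 0.42 and r 0.71, and without strain 14, rho was 0.083 and r 0.057 (n = 17 each). Over the 14 strains other than 10, 13, 14 and 20, rho was 0.45 and r 0.53. Of the 58 hairpins, 36.2% had an arm rho of 0.5 or more, and the median was 0.33. miR-378 ranked 34th from the top.

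Skeletal muscle miRNAs were compared with each arm because miR-378 is known from muscle. Likeness is Spearman rho of log2(CPM + 1) over strains, and a row is counted as alike at 0.5 or more. Of the 5 measured muscle rows, 3 were alike miR-378 over the 18 strains, where 15.7% of the 280 other rows were. miR-1, which represses non-muscle genes in muscle, had rho = 0.71 (r = 0.67), its sister miR-206 rho = 0.68 (r = 0.68), and miR-133a* rho = 0.53 (r = 0.56). miR-133a had rho = 0.24 (r = 0.14) and miR-133b rho = 0.17 (r = 0.09), although their genes neighbour those of miR-1 and miR-206. With total counts alone, 0 of the 5 rows reached 0.5. Since all levels share the scaling of their library, and since the likeness to muscle rows entered the choice of miR-378, nothing is read from these counts.

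In strain 10 the levels of miR-378 and of the muscle rows parted. miR-378 there was at 59878 CPM, while miR-1 was at 35358 CPM, miR-206 at 1160 CPM, miR-133a at 23.3 CPM and miR-133b at 2.68 CPM. The muscle score, the mean over the 5 rows of the log2 level minus its mean over strains, was -1.84 in strain 10, the lowest of 18, and 1.55 in strain 14, the highest. In strain 14, miR-378 at 126604 CPM went with miR-1 at 290860 CPM, miR-206 at 11666 CPM and miR-133a at 468 CPM. Strain 10 was also the highest in the ratio of miR-378 to miR-1, at 1.69, against a median of 0.315 and a lowest value of 0.171 in strain 11. Over all 18 strains, miR-378 and the muscle score had rho = 0.45 and r = 0.45, and r was 0.68 without strains 9 and 10, the 2 farthest in score. Without strain 10 alone, rho was 0.68 with the score, 0.88 with miR-1 and 0.85 with miR-206 (n = 17), and without strain 14 alone, rho with the score was 0.34. Over the 14 strains other than 10, 13, 14 and 20, rho with the score was 0.69 and r 0.73, and all 5 muscle rows reached 0.5, where 6.79% of the 280 other rows did. Without strain 28 as well, 3 of the 5 did, but the share of all rows was not computed for that set. The muscle rows were not alone in this: over the 14 strains all 3 red cell rows reached 0.5 with miR-378, and the red cell score had rho = 0.76. Nothing is read from the counts of muscle rows here either, as likeness to them entered the choice of miR-378. Strains 7, 9 and 25, the lowest for miR-378, were also the lowest 3 in muscle score apart from strain 10, at -1.50, -1.59 and -1.47.

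All 5 muscle rows were alike miR-378* over 18 strains, where 4.64% of the 280 other rows were: miR-133a had rho = 0.77, miR-133b 0.74, miR-133a* 0.67, miR-206 0.61 and miR-1 0.61. With the muscle score miR-378* had rho = 0.79 and r = 0.76, and r was 0.68 without strains 9 and 10. Without strain 10 alone, rho with the score was 0.75, and the same value was found without strain 14 alone (n = 17 each). Among the 14 other strains rho was 0.71, and again all 5 rows reached 0.5, where 5% of the 280 other rows did. With total counts alone, 3 of the 5 rows reached it, but the share of all rows was not computed for that scaling. Likeness to muscle rows entered the choice of miR-378* too, so nothing is read from these counts. Nor are the 5 rows independent, as miR-133a and miR-133a* are arms of 1 hairpin (rho = 0.77 between them). Whether the 2 arms differed in their likeness to muscle was not tested. Muscle miRNAs themselves ran from a summed 22465 CPM in strain 9 to 303077 CPM in strain 14 (median 85709 CPM), and the part of muscle tissue in the level of either arm was not tested. miR-499 and miR-208b, which mark heart and slow muscle, were at or near 0: miR-499 had at most 2.32 CPM and no reads in 3 libraries, and miR-208b at most 0.836 CPM and no reads in 11.

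**Figure D3:**
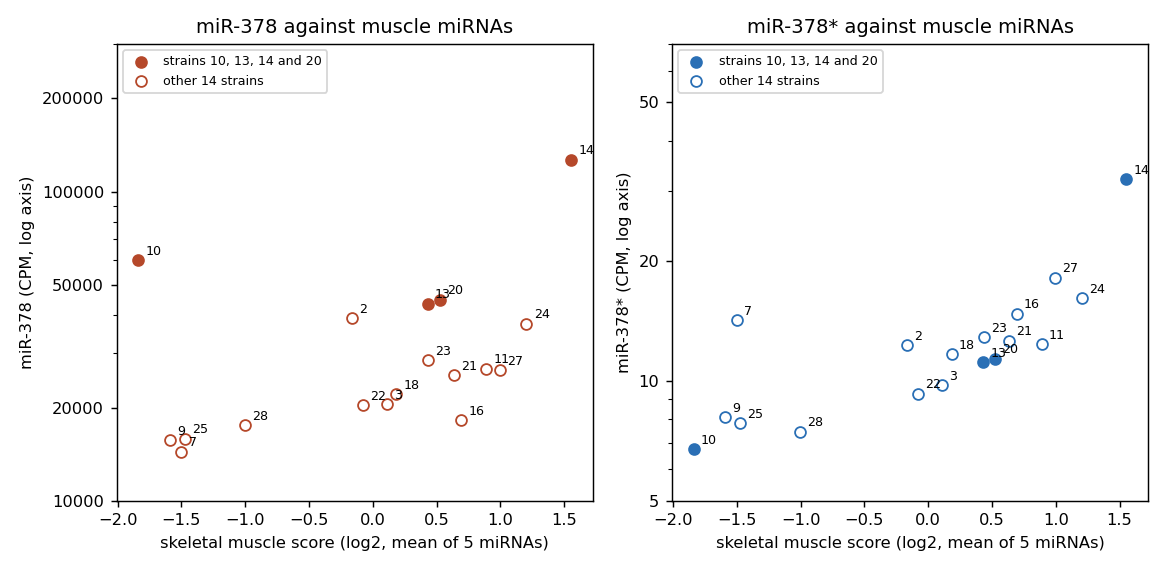
Level of miR-378 (left, CPM, log axis) and miR-378* (right, CPM, log axis) against the skeletal muscle score (log2, mean of 5 miRNAs); numbers name strains and filled points are strains 10, 13, 14 and 20. Strain 10 has the lowest score, -1.84, with the second highest miR-378 and the lowest miR-378*, and strain 14 is highest on every axis.

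The 10 rows most like miR-378 over the 18 strains held 2 of the muscle miRNAs. miR-126-3p, an endothelial miRNA, came first (rho = 0.74, r = 0.79), followed by miR-411 (rho = 0.74), miR-196b of a Hox cluster (rho = 0.73), miR-1, miR-380-5p (rho = 0.71), miR-138 (rho = 0.70), miR-16 (rho = 0.69), miR-139-3p (rho = 0.68), miR-206 and miR-382 (rho = 0.66). miR-411, miR-380-5p and miR-382 are encoded in the imprinted Dlk1-Dio3 region, but rows of that region split. Over the 18 strains miR-379 (rho = 0.62) and miR-127 (0.57) were also alike miR-378, while miR-376a* (-0.64) and miR-376b* (-0.52) were opposed to it. In the 14 strains rho was 0.83 for miR-1, 0.76 for miR-138 and 0.73 for miR-206. In those 14 it was 0.53 for miR-126-3p and miR-380-5p, 0.51 for miR-411, and between 0.35 and 0.49 for miR-16, miR-382, miR-196b and miR-139-3p. Of all 280 other rows, 19 reached 0.5 in the 14 strains, against 44 in all 18. With total counts alone, 3 of the 10 reached 0.5: miR-126-3p and miR-380-5p at 0.54 and miR-196b at 0.51. The others then lay between 0.096 for miR-138 and 0.47 for miR-1 and miR-411.

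The rows most opposed to miR-378 were miR-96 (rho = -0.85, r = -0.92), miR-19b, which has genes on chromosomes 14 and X (rho = -0.78), miR-342-3p (rho = -0.77), miR-183* (rho = -0.76) and miR-24-1* (rho = -0.76). miR-96 and miR-183* come from a single cluster, but its other rows were not opposed over the 18 strains. miR-183, the major arm beside miR-183*, had rho = 0.496 (-0.04 in the 14 strains) and miR-182 0.20 (-0.46). miR-96 ran from 224 CPM in strain 14, where miR-378 was highest, up to 1275 CPM in strain 25, one of the 3 lowest for miR-378. Without the 4 libraries miR-96 had rho = -0.69, and miR-19b, miR-342-3p, miR-183* and miR-24-1* lay between -0.49 and -0.56. With total counts alone all 5 stayed at -0.5 or less, with rho = -0.71 for miR-96. At -0.5 or less there were 14.3% of the 280 rows over 18 strains and 2.86% over the 14. For miR-378* these shares were 2.86% and 6.43%. miR-30a, a neighbour of miR-378 in abundance, was opposed to miR-378* at rho = -0.64 (-0.82 in the 14 strains, and -0.43 with total counts alone).

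Likeness to miR-378 over all 18 strains went with abundance, and some rows of shared transcripts parted. The median rho was -0.06 for 142 rows of 10 to 100 CPM, 0.05 for 75 rows of 100 to 1000 CPM, 0.21 for 46 rows of 1000 to 10000 CPM and 0.37 for 17 rows above that. Without strains 10, 13, 14 and 20 the median was 0.02 for the first of these groups and -0.0066 for the last. miR-126-3p had rho = 0.74 and its other arm miR-126-5p rho = -0.12. miR-143 of smooth muscle had rho = 0.52 and miR-145, its neighbour, rho = -0.70, and miR-192 of gut and liver epithelium had 0.59 where miR-194 had -0.51. In the 14 strains the arms of miR-126 were close, at 0.53 and 0.48. miR-192 was then at 0.17 and miR-194 at -0.14, while miR-143 was at 0.17 and miR-145 still at -0.52.

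Metabolic miRNAs were compared with miR-378 from a list of 10 measured rows, of which 6 averaged at least 10 CPM. 2 of the 6 were alike miR-378: miR-103, which lies in introns of pantothenate kinase genes, at rho = 0.63 and liver's miR-122 at rho = 0.55. Over all 280 other rows that share was 15.7%. miR-107, of another pantothenate kinase gene, had rho = 0.48, miR-375 0.05, miR-33, which lies in an intron of Srebf2, 0.07, and the hypoxia-induced miR-210 -0.11. miR-103 ranged from 4958 CPM in strain 22 up to 16495 CPM in strain 10. Without the 4 libraries rho was 0.24 for miR-103, 0.28 for miR-122, 0.40 for miR-107, 0.05 for miR-375, 0.32 for miR-33 and 0.36 for miR-210. With total counts alone it was 0.12 for miR-103 and 0.36 for miR-122. miR-33*, miR-370, miR-494 and miR-802 averaged below 10 CPM. Reads of miR-103 and miR-107, whose printed sequences are near-identical, may have been shared. Of the 4 brown adipose rows, 0 were alike miR-378, with rho = -0.15 for miR-193b, 0.07 for miR-365, -0.25 for miR-455 and -0.26 for miR-455*. In the 14 strains these values were 0.45, 0.32, -0.41 and -0.04. miR-365 was alike miR-378* at rho = 0.53, and at 0.38 in the 14 strains 0 of the 4 were. With total counts alone, miR-365 (0.68) and miR-193b (0.52) were alike miR-378*, while miR-455 (0.25) and miR-455* (-0.07) were not. miR-455 was then opposed to miR-378 at -0.54.

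Lists of other cell types were set beside both arms, as tumours can hold blood, vessels and stroma. The shares of all 280 other rows at 0.5 or more were 15.7% for miR-378 and 4.64% for miR-378* over 18 strains, and 6.79% and 5% over the 14. For miR-378*, 3 of 5 leukocyte rows were alike over the 18 and 2 over the 14, while 0 were alike miR-378 in either set. miR-223 of myeloid cells had rho = 0.73 with miR-378* (0.72 in the 14 strains), lymphocyte miR-150 0.64 (0.54) and miR-142-5p 0.64 (0.45). The leukocyte rows summed to 1572 CPM in strain 10, which had the lowest miR-378*, and to 18243 CPM in strain 27, which had the second highest. miR-142-3p made up most of both sums, at 1360 and 17098 CPM. It was not alike miR-378*, at 0.32 (0.03 in the 14 strains), and neither was miR-155, at 0.18 (0.08). The part of leukocytes in the level of either arm was not tested.

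Of the 3 red cell rows, 1 was alike miR-378 over the 18 strains and all 3 over the 14. miR-486, found in red cells and in muscle, had rho = 0.54 with miR-378 (0.71 in the 14 strains), miR-451 0.41 (0.55) and miR-144 0.29 (0.66). With miR-378* only miR-486 of the 3 was alike, at 0.61 over the 18 and 0.57 over the 14. With total counts alone, miR-486 had rho = 0.27 with miR-378 and 0.63 with miR-378*. The red cell rows summed to 207 CPM in strain 9, where miR-378 was the second lowest, and to 808 CPM in strain 14, where it was highest. The red cell score, formed like the muscle score, had rho = 0.45 and r = 0.48 with miR-378 over the 18 strains. Without strains 9 and 14, the 2 farthest in that score, r was 0.15.

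The neural list held 2 rows of 4 that followed an arm. miR-138 was alike miR-378 (0.70, and 0.76 in the 14 strains) and miR-378* (0.51 and 0.53), but at 0.096 and 0.36 with total counts alone. miR-128 was alike miR-378* (0.65, and 0.63 in the 14 strains), and with miR-378 it had -0.06 over the 18 and 0.58 over the 14. miR-9 and miR-9* of the same list had rho = -0.38 and -0.34 with miR-378* over the 18. Total counts alone put them at -0.54 and -0.55, opposed to miR-378*. With miR-378 they had -0.09 and 0.06 over the 18. Of 4 mesenchymal rows 0 were alike either arm over the 18, and miR-199a-3p was alike miR-378 over the 14, at 0.56 against 0.24. Basal miR-203 and miR-205 had rho between -0.04 and 0.16 with either arm over the 18, and in the 14 strains 0.54 and 0.35 with miR-378.

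Of 4 liver and gut rows 3 were alike miR-378 over the 18 strains, miR-122, miR-192 and miR-215 (0.62), and 0 over the 14, where miR-215 had 0.48. For the luminal epithelial list, 1 of 8 rows was alike miR-378 (miR-200c, rho = 0.51), a share near that of all rows, and 2 were opposed to it, miR-200a at -0.64 among them. In the 14 strains 0 of the 8 were alike miR-378 or opposed to it, with miR-200c at rho = -0.0022 and miR-200a at -0.47. With miR-378*, 0 of the 8 were alike and 1 was opposed, miR-141* at -0.50 (-0.71 in the 14 strains). The luminal score, formed like the muscle score, had rho = -0.47 with miR-378* (-0.25 in the 14). miR-200c and miR-141 had -0.25 and -0.36 with miR-378*, and -0.63 and -0.57 with total counts alone. The endothelial pair and the 3 smooth muscle rows held 0 that were alike miR-378* in either set.

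**Figure D4:**
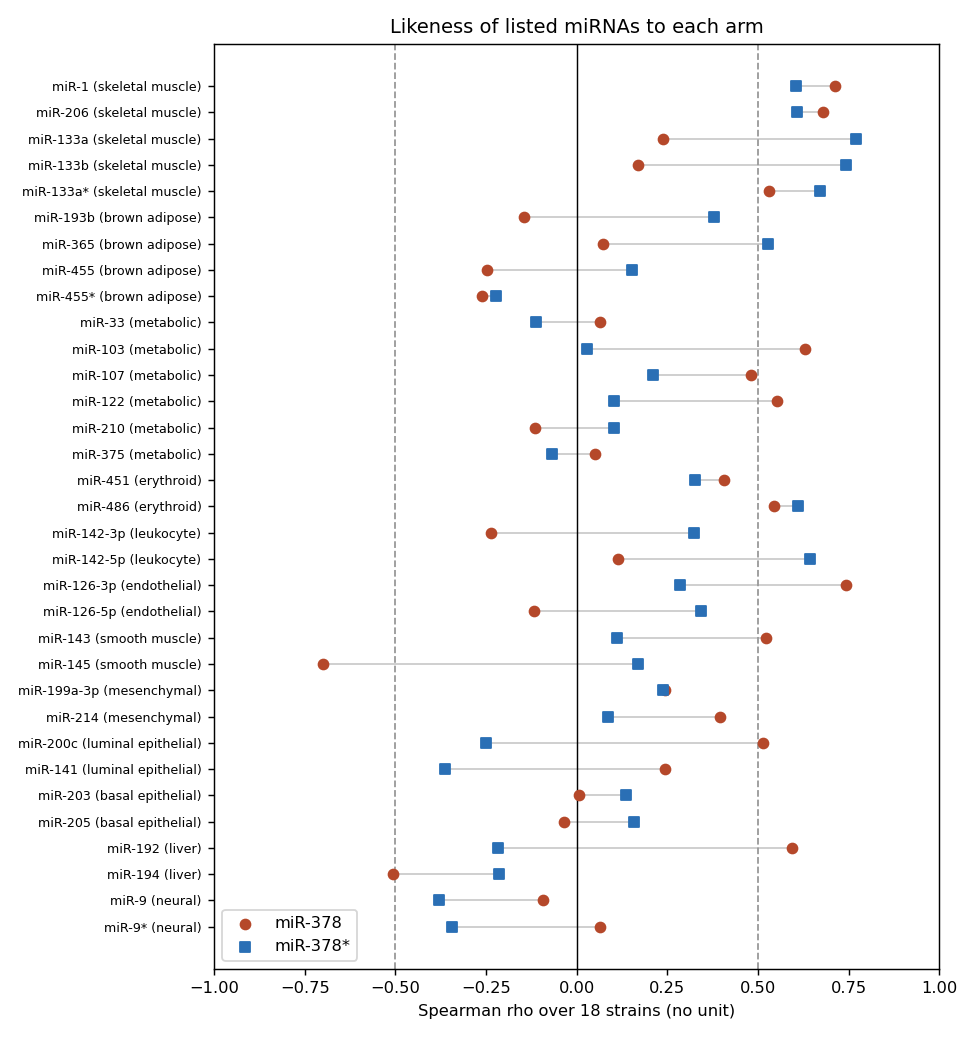
Spearman rho over 18 strains (x axis, no unit) of listed miRNAs with miR-378 (circles) and miR-378* (squares), with dashed lines at -0.5 and 0.5. The 5 skeletal muscle rows lie at 0.61 to 0.77 for miR-378* and at 0.17 to 0.71 for miR-378, and miR-145 lies at -0.70 for miR-378.

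Reads of other genes may enter the miR-378 row. GENCODE holds the paralogues Mir378b on chromosome 11 (88352773 to 88352864), Mir378c on chromosome 14 (46954830 to 46954928) and Mir378d on chromosome 10 (126710282 to 126710391) of GRCm38. The table has 2 rows whose names begin with miR-378, the members themselves. How reads of such near-identical paralogues were counted is not stated, so the level of miR-378 is uncertain to that extent.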

How the data were processed

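Small RNA of 18 tumour pools was sequenced on an Illumina Genome Analyzer IIx (series' design text). Per the submitters' processing notes BWA and mm9 are named, in a role and version not given in the sources used here, as is true of the counter and miRNA annotation. The authors deposited log2 values for 583 rows. From the values, 2 to the power of a value is a whole read count times 1 constant per library (0.999 to 1.39): of 3818 values of up to 50 reads, 100% were whole within 0.006 log2. Values were returned to reads, 12 rows with values identical to another were dropped, and library sizes were set by TMM, the trimmed mean of M values (own code, trimming 30% on log ratio and 5% on abundance). A pseudocount of 1 CPM preceded log2, which understates changes of low rows, and the 281 rows that averaged 10 CPM or above were kept. Depth was 4358311 to 14946857 reads. The functions were tested on simulated data. Python 3.11.15, numpy 2.4.6, pandas 2.3.3, scipy 1.17.1 and matplotlib 3.10.9 were used.

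With 1 library per strain, no test was run. Members, 13 marker lists and relations were chosen with earlier results of these data known. Named rows are both arms, the 10 most and 5 least like miR-378, the 5 most like miR-378*, the 3 rows above and below miR-378 in abundance, all rows of the muscle, heart, adipose and metabolic lists, and the 2 most abundant rows of each other list. let-7b, let-7a, let-7c, miR-21, miR-144, miR-150, miR-200a and miR-215 were named after their values were seen. The same holds for miR-183, miR-182, miR-379, miR-127, miR-376a*, miR-376b*, miR-155 and miR-141*. Arms were paired by name, leaving out mature miRNAs with several star rows. Row names were matched to current RefSeq names by hand.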

Additional observations from a re-analysis of the deposited data

How the results depend on the processing

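Alternatives were other scalings, pseudocounts of 0.1 and 5 CPM, filters of 100 CPM and none, each strain left out in turn, sets without strains 10, 13, 14 and 20 or these and 28, and Pearson in place of Spearman. Removal of the first principal component, the sets without strains 10 and 14, the SD values and the muscle row counts of miR-378* under these alternatives were added after seeing the data. The mean levels and the mean arm ratio moved by less than 1 SD over strains wherever they were computed. For the scalings this is no check, since the mean level of miR-378 stayed at 14.78 log2 and both arms share the scaling. Nor is it one for single strains left out, as 1 strain can move such a mean only slightly. Without strains 10, 13, 14 and 20 the mean level of miR-378 was 14.45 log2. Scaling by total counts alone left 0 of 5 muscle rows alike miR-378 (3 in the main setting) and 3 alike miR-378* (5 in the main setting), and above a filter of 100 CPM the muscle list holds fewer rows, of which 3 were alike miR-378*. Of the 10 rows most like miR-378, 3 stayed at 0.5 or more with total counts alone.

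Without strains 10, 13, 14 and 20 the SD of miR-378 was 0.45 log2, that of the arm ratio (pseudocount of 1 CPM) 0.40 log2, rho of miR-378 with the muscle score 0.69, and 5 muscle rows were alike miR-378; without strain 28 too, the values were 0.45, 0.41, 0.62 and 3 rows. With the first principal component removed, rho of miR-378 was 0.60 with miR-378* and 0.72 with the muscle score, and 5 muscle rows were alike it; miR-103 (-0.22), miR-145 (0.040) and miR-200c (-0.26) changed sign against miR-378. miR-200c also did so without the 4 libraries (-0.0022) and without these and strain 28 (-0.10). The causes were not tested.

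With each strain left out, rho of miR-378 with the muscle score ran from 0.34 to 0.68 and that of miR-378* from 0.75 to 0.91, rho of the arms from 0.083 to 0.42, the SD of miR-378 from 0.61 to 0.82 log2, that of miR-378* from 0.37 to 0.51 log2 and that of the arm ratio from 0.55 to 0.72 log2. The mean level of miR-378 ran from 14.65 to 14.83 log2, that of miR-378* from 3.61 to 3.73 log2 and the arm ratio from 10.98 to 11.16 log2; 2 to 3 muscle rows were alike miR-378, and 5 alike miR-378*. miR-378* rests on 58 to 283 reads per library, which limits its order of strains. No paired analysis was possible because each strain has 1 library.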
